A study of Homo sapiens with 6 samples.

Results

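The question was how far the transcript response of keratinocytes to IL-1α depends on the kinase p38α. For each gene the response was taken as the log2 level after IL-1α (mean of 2 libraries) minus the log2 level without it (1 library), and the genotype dependence as the knockout response minus the wild-type response. This response difference, the interaction of genotype and treatment, was computed for the 12925 of 27945 listed genes that reached 1 RPKM (reads scaled to transcript length and to the mapped reads of the library) in at least 1 of the 6 libraries. A value of -1 means that the fold change was 2-fold smaller in the knockout than in the wild type, and 0 that the fold changes were equal. The cells were HaCaT, an immortalised human keratinocyte line, either WT or MAPK14-null (p38a-KO in the library names), where MAPK14 is the gene of p38α. Each genotype had 1 library of cells given PBS for 4 h and 2 libraries of cells given IL-1α in PBS for 4 h, and all 6 were grown in the same serum-containing medium. The labels do not describe the edit in MAPK14, the number of knockout clones, the IL-1α dose or whether replicates were separate cultures, so p-values measure the spread between these libraries, which may be technical. Because the unstimulated groups had 1 library each, every response difference rests on those 2 single libraries.

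IL-1α is an alarmin released by damaged or stressed keratinocytes. Through the IL-1 receptor, MYD88 and the IRAK kinases it activates the kinase TAK1, from which one branch leads to NF-κB and others to the MAP kinases p38, JNK and ERK. p38α acts largely through the kinases MK2 and MSK1/2: MK2 restrains proteins such as tristetraprolin (ZFP36) that destabilise mRNAs with AU-rich elements, and MSK kinases phosphorylate chromatin and CREB at inflammatory genes. In epidermis the IL-1 programme includes neutrophil-attracting chemokines, antimicrobial proteins and components of the cornified barrier.

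Depth, recovered from the values, was 16294229 to 18534959 reads in the 3 wild-type libraries and 21889339 to 34967810 in the 3 knockout libraries. The IL-1α pair correlated at 0.985 in wild type and 0.969 in knockout, and both pairs differed by more than counting noise. The unstimulated knockout library was closer to IL-1α knockout replicate 1 (0.982) than to replicate 2 (0.96), and replicate 1 was closer to it than to replicate 2, so every knockout response averages libraries that stand apart. All 10 keratinocyte markers reached 1 RPKM, with summed levels of 5978 to 6975 RPKM in wild type and 3682 to 4214 RPKM in knockout. Markers of fibroblasts summed to at most 2.59 RPKM and those of melanocytes to at most 4.81 RPKM, with TYR at 0. Endothelial markers summed to 1.83 to 11.96 RPKM, nearly all of it CDH5, with PECAM1 and TEK at 0, and leukocyte markers to 5.01 to 14.89 RPKM, mostly CD68; their part in the results was not tested. MAPK14 (hg19, chromosome 6, 35995454 to 36079013, plus strand) stood at 14.4, 13.3 and 14.8 RPKM in the wild-type libraries and at 11.3, 11.0 and 7.41 RPKM in the knockout libraries. The groups did not overlap, and under IL-1α the difference did not pass limma's test (adjusted p = 0.301). A gene-level value does not show whether the remaining transcript is intact, so it neither checks nor contradicts the genotype label.

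Promoters of 5 genes described below are shown first, as examples of 3 classes of IL-1α targets. Whether these classes differ in genotype dependence, or whether motifs bear on it, was not tested. The sequences are the 250 bases before the transcription start from RefSeq (GRCh38.p14). Capitals mark 3 motifs searched on both strands: κB-like (GGNNTTTCC or GGAAANNCC), AP-1 (TGANTCA) and ISRE-like, the element of interferon-stimulated genes (a pair of GAAA half-sites 2 bases apart).
CXCL8, chr4:73740319-73740568, plus strand: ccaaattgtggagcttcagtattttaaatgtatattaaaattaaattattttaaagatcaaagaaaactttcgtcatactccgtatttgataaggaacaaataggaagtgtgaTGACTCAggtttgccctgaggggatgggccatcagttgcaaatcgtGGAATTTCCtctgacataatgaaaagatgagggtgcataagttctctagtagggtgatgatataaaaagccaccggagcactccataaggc
CXCL5, chr4:73998678-73998927, minus strand: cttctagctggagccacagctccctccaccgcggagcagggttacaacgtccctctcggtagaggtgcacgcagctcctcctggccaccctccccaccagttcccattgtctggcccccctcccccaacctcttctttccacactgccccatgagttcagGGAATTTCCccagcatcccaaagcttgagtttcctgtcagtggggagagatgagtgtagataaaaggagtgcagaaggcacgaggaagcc
OAS3, chr12:112938224-112938473, plus strand: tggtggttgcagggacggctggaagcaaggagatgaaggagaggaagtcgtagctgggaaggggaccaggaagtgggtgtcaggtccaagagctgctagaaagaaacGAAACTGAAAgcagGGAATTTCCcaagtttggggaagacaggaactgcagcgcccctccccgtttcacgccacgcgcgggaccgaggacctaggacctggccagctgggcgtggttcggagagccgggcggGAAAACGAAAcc
SPRR2A, chr1:153057513-153057762, minus strand: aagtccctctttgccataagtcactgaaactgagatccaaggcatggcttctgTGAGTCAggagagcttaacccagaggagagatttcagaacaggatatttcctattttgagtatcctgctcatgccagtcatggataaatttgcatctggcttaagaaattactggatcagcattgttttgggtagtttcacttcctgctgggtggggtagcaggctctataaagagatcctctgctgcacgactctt
SPRR2F, chr1:153113517-153113766, minus strand: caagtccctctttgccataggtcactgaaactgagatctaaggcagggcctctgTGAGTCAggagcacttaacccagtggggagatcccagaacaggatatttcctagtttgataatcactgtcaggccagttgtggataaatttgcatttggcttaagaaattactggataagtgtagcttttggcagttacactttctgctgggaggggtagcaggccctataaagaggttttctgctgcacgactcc

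CXCL8 and CXCL5 carried the same κB-like letters at nearly the same distance from the start (-91 and -90). CXCL8 also had an AP-1 match (-137) and CXCL5 had none in this window. Their response differences were 0.24 and -2.60. The κB-like motif was in 6 of 6 promoters of neutrophil-attracting chemokines, against 5.5% of all 27305 promoters in the table. An ISRE-like motif was in 20 of the 37 matched promoters of interferon-stimulated genes (54.1%; 3.1% of all promoters). An AP-1 motif was in all 5 of the matched SPRR promoters, against 6.6% of all promoters. These matches describe letters in a window and are not evidence of binding.

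No gene passed the test for a response that differed between genotypes (limma on log2 of RPKM + 0.5, Benjamini-Hochberg adjustment at 0.05), and 0% of the genes tested was therefore called in either direction. The smallest adjusted p was 0.75. At an unadjusted p under 0.05 there were 567 genes, 486 with the higher and 81 with the lower response in knockout, against 646 expected by chance. Without a filter on low values 87 genes passed, of which 74 were below 1 RPKM in every library; no other setting tried called any gene. By size alone the response was at least 2-fold lower in knockout for 1.19% of genes and at least 2-fold higher for 3.4%. Both knockout responses lay below both wild-type responses for 17.8% of genes and above both for 37.1%, and the median response difference over all genes was 0.10.

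That positive median followed transcript length. In wild type the median response was -0.49 for the 619 genes under 500 bases and 0.08 for the 3597 genes of 4000 bases and over; in knockout it was 0.02 and 0.00. The median response difference accordingly went from 0.57 through 0.48, 0.28 and 0.09 to -0.09 over the 5 length classes. Under IL-1α the genotypes had nearly the same median level at every length (-0.02 to 0.15, knockout minus wild type), whereas without stimulation the medians ran from -0.59 to 0.23. The gradient thus set the unstimulated wild-type library apart from the other groups, and every response difference includes that library. With 1 library in that group, its preparation and a response to IL-1α found only in wild type cannot be told apart. Removing the length trend moved the median response difference of all genes from 0.10 to -0.01. Values with the length trend removed are given beside several of the lists and are to be read against that -0.01.

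**Figure D1:**
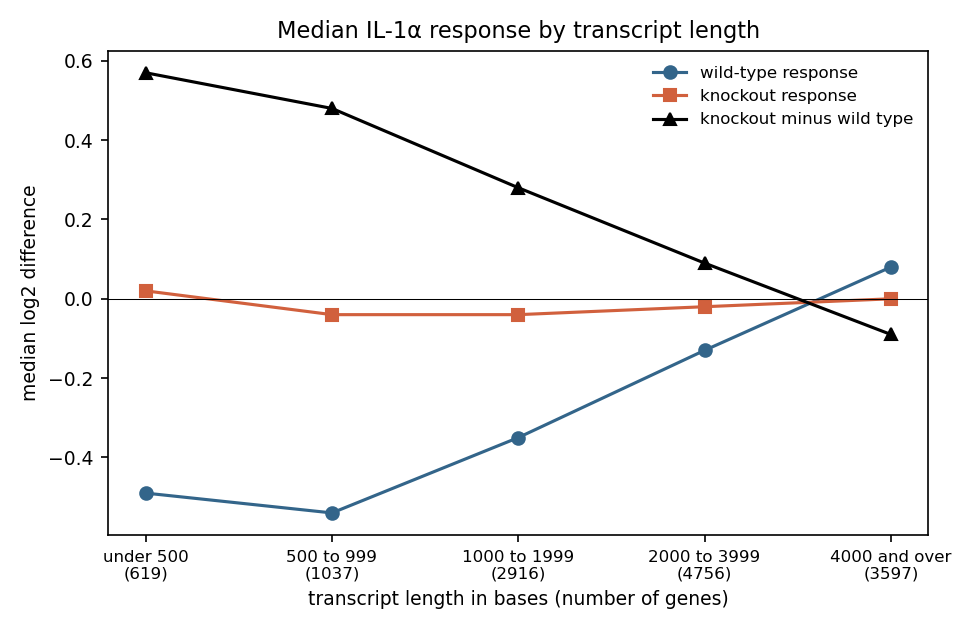
Median log2 response to IL-1α in wild type (circles), in knockout (squares) and their difference (triangles) for 5 classes of transcript length, with the number of genes under each class. The wild-type median runs from -0.49 in the shortest class to 0.08 in the longest, while the knockout medians stay between -0.04 and 0.02.

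To find the IL-1α response without using the genotype difference, genes were called on the response averaged over both genotypes, a contrast that does not contain the interaction. It passed for 82 genes that rose (0.634% of those tested) and 15 that fell (0.116%). The median response of the 82 was 1.90 in wild type and 1.57 in knockout. Their response difference was below 0 for 67 of 82, against 39.6% of all genes, and its median was -0.44. Both knockout responses lay below both wild-type responses for 51 of them, 62.2% against 17.8% of all genes. The difference was at least 2-fold lower for 18 and at least 2-fold higher for 1, S100A9. With the length trend removed 76 of the 82 were below 0, with a median of -0.58. The median of all genes then moved as well, from 0.10 to -0.01, so the share of 39.6% does not apply to that count. Without knockout replicate 1 the median of the 82 was -0.34 and without knockout replicate 2 it was -0.52. No single one of these differences passed the test, so the counts describe the group and assign no gene. Of the 15 that fell, 10 were entries for repeated copies of ribosomal RNA genes, and the others were CA2, SNHG25, SCEL, SLC39A2 and CYP1A1.

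**Figure D2:**
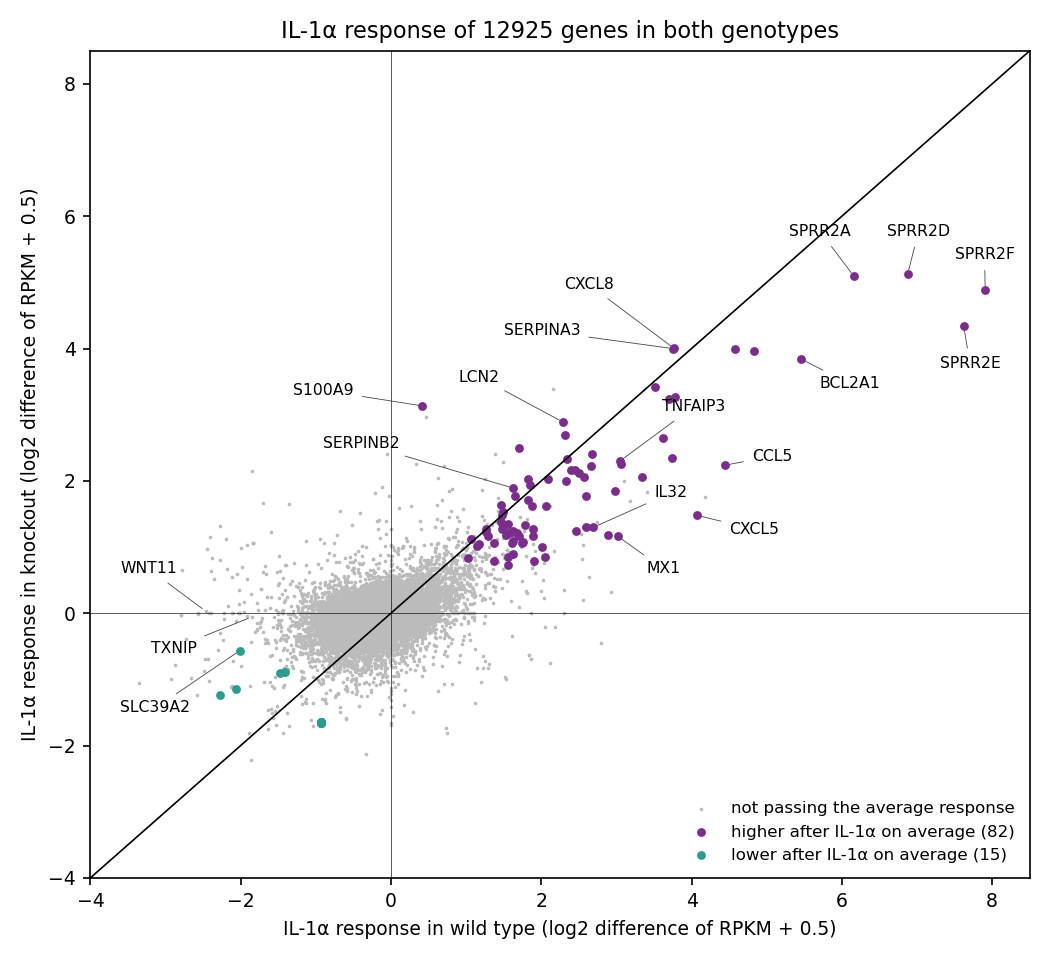
Log2 response to IL-1α in wild type (x axis) and knockout (y axis) for 12925 genes; the diagonal marks equal responses, and coloured points passed the test of the average response. Of the 82 genes that rose, 67 lie below the diagonal, the SPRR2 genes, CCL5 and CXCL5 farthest, and S100A9 lies far above it.

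Tested within the knockout alone, 9 genes rose (0.0696% of those tested): SERPINA3, BIRC3, LCN2, SPRR2A, SPRR2D, CXCL8, PLAT, S100A9 and IGFL1, a growth-factor-like gene of inflamed skin. These responses were thus measurable in cells labelled as lacking p38α, and 8 of them, all but S100A9, also passed in wild type. Within wild type 2 genes fell (0.0155%) and 26 rose (0.201%). For 23 of these 26 the response difference was below 0, against 39.6% of all genes. The 26 were chosen for a high wild-type response, which the difference subtracts, so the choice itself favours values below 0. That count therefore decides nothing about the genotypes. The 18 that passed in wild type and not in knockout, among them CCL5, CXCL5, CXCL6, BCL2A1, IL32 and SPRR2F, are not thereby shown to differ between genotypes, since none passed the test of the difference itself.

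For some genes the response difference could be bounded to within 2-fold. The 95% interval of the response difference lay within 2-fold either way for 16 of the 82, against 30.7% of all genes, most of which did not respond. IFNGR1, the ligand-binding chain of the interferon-γ receptor, went from 33.5 to 94.0 and 93.5 RPKM in wild type and from 31.4 to 80.7 and 96.8 RPKM in knockout. Its levels overlapped between genotypes, and the response difference was 0.01 (95% interval -0.68 to 0.69). IFNGR2, the other chain of that receptor, had a response difference of 0.07 (-0.61 to 0.75). NFKBIZ, an atypical IκB protein needed for secondary NF-κB targets, had 0.04 (-0.67 to 0.76). CFLAR, an inhibitor of caspase-8, had -0.08 (-0.78 to 0.62). SDC4, a cell-surface proteoglycan, had -0.14 (-0.81 to 0.54), HBEGF, a ligand of the EGF receptor, -0.21 (-0.94 to 0.51), CSF1, the macrophage growth factor, -0.16 (-0.97 to 0.66), and NINJ1, a mediator of plasma membrane rupture, 0.17 (-0.48 to 0.83). For these genes a fold change after IL-1α more than 2-fold smaller in the knockout lay outside the interval. That bound is wide beside the responses, which in wild type ran from 1.06 (IFNGR2) to 1.56 (HBEGF) on the log2 scale. For SDC4, with 1.15 in wild type, the interval reached -0.81. Loss of a large part of the response thus stayed possible, and these genes are not shown to be independent of p38α. These intervals assume that the single unstimulated libraries vary as the IL-1α replicates do.

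Neutrophil-attracting CXC chemokines had positive responses in both genotypes for all 6 members, and the response difference varied widely among them. Of the 6 tested, 5 rose on average, and the median response was 3.67 in wild type and 2.49 in knockout. CXCL8, the main neutrophil chemokine of human skin (hg19, chromosome 4, 74606223 to 74609433), went from 17.7 to 286 and 212 RPKM in wild type and from 6.19 to 79.6 and 144 RPKM in knockout. The knockout levels after IL-1α were all below the wild-type ones, but they started lower, and the response difference was 0.24 ± 0.53 (SE; adjusted p = 0.978). CXCL1 likewise had 3.52 in wild type and 3.42 in knockout, a difference of -0.10 ± 0.72. CXCL5 (chromosome 4, 74861359 to 74864446), a chemokine produced mainly by epithelial cells, behaved otherwise. Unstimulated wild-type cells gave 0 reads of it, against 7.07 and 8.91 RPKM after IL-1α, which is at least 111-fold higher against a floor of 3 reads. In knockout it went from 0.0350 RPKM (3 reads) to 1.60 and 0.555 RPKM, a read ratio of 28.9 (95% interval 9.66 to 142, counting error only). Its response difference was -2.60 ± 0.64, adjusted p = 0.966. The size of that difference depends on the pseudocount, and it ranged from -4.88 to -2.10 over the settings tried. CXCL6 had 9.48, then 160 and 109 RPKM in wild type, and 3.15, then 13.1 and 24.8 RPKM in knockout, a difference of -1.39 ± 0.58. CXCL3 had -0.97 ± 0.65. The median of the 6 was -0.53, but it was 0.03 without knockout replicate 1 and -1.10 without knockout replicate 2, so the group value depends on which knockout library is used. With the length trend removed it was -0.92, and all 6 were below 0. CXCL1 and CXCL3 are close in sequence, and reads may have been shared between them.

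Among the other chemokines CCL5, which draws T cells and monocytes, had the smallest unadjusted p (0.00282) of the lower responses, leaving out miRNA, snoRNA, antisense and LOC entries and genes with no group mean of 5 RPKM. CCL5 (chromosome 17, 34198496 to 34207377) stood at 0.928, then 33.0 and 28.4 RPKM in wild type and at 1.17, then 9.55 and 5.65 RPKM in knockout. The unstimulated levels were alike and the IL-1α levels did not overlap. The wild-type response was 4.45, the knockout response 2.24 and the response difference -2.21 ± 0.46 (95% interval -3.33 to -1.08; adjusted p = 0.966). CCL20, which draws dendritic cells and Th17 cells through CCR6, rose on average, with 0.0720 to 8.62 and 5.50 RPKM in wild type and 0.172 to 5.26 and 6.53 RPKM in knockout, a difference of -0.45 ± 0.47. CCL2, the monocyte chemokine, could not be placed: it went from 9.75 to 201 and 172 RPKM in wild type and from 12.6 to 206 and 8.87 RPKM in knockout. One knockout library thus matched the wild type and the other did not respond, and its SE was 2.21. CXCL10, a chemokine induced by interferon, stood at 0.0490, then 1.27 and 0.847 RPKM in wild type and at 0.165, then 3.66 and 2.03 RPKM in knockout. These low levels were higher in the knockout after IL-1α, with a response difference of 0.80 (-0.62 to 2.21). Of the 8 in the group 2 rose on average and 5 had a difference below 0, with a median of -0.41.

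**Figure D3:**
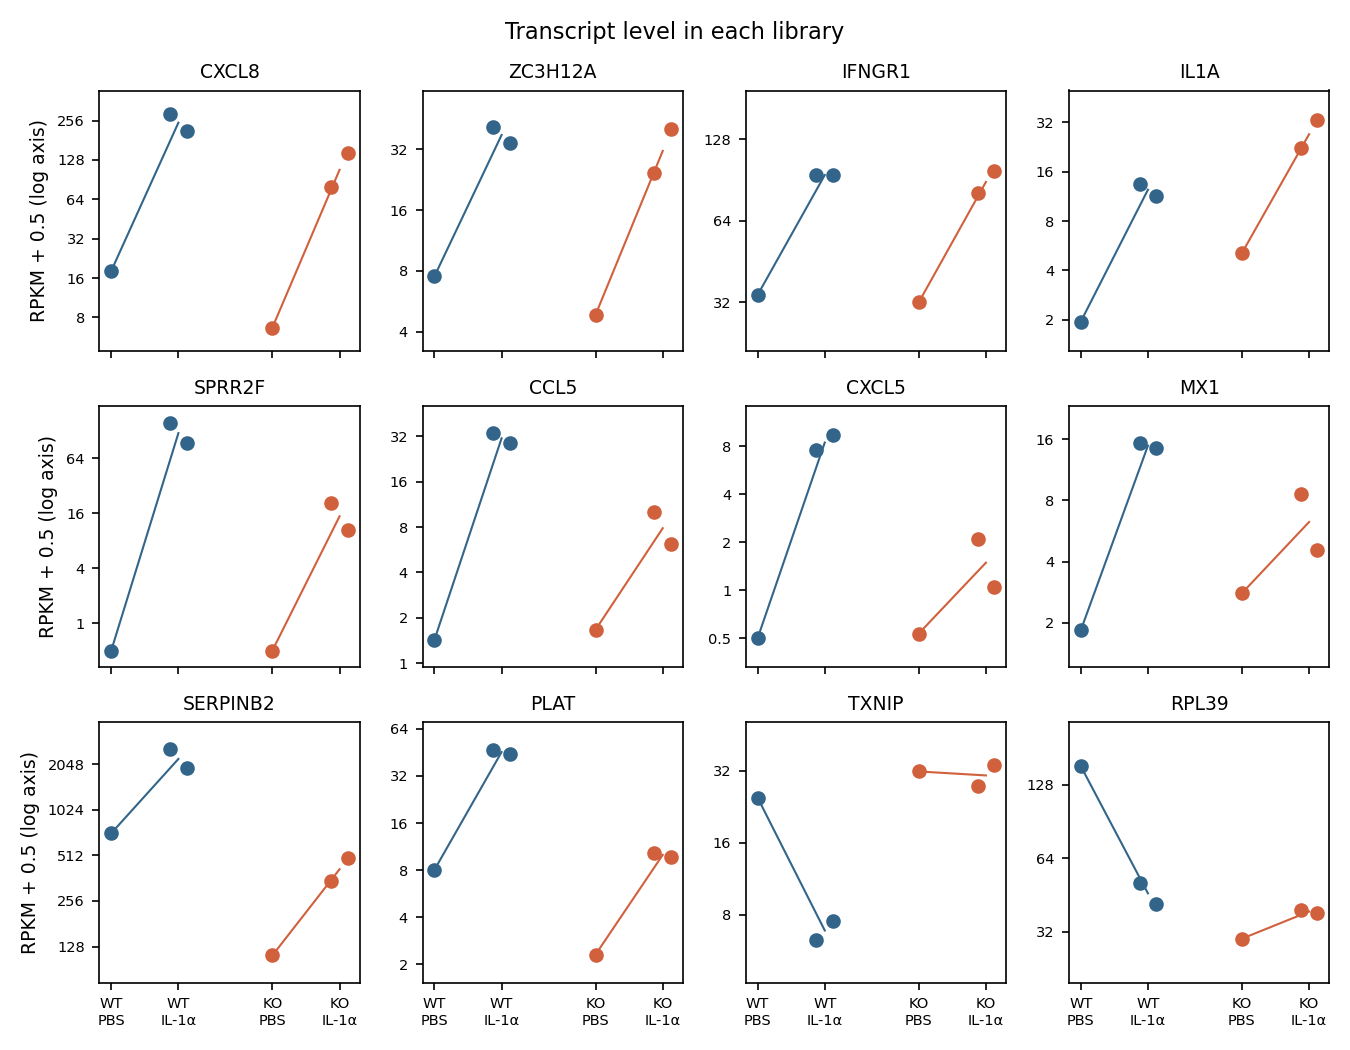
RPKM + 0.5 on a log axis for 12 genes in each of the 6 libraries, wild type in blue and knockout in orange, with lines joining the unstimulated library to the log mean of the 2 IL-1α libraries. CXCL8, ZC3H12A, IFNGR1 and IL1A have slopes of similar steepness in both genotypes, SPRR2F, CCL5, CXCL5 and MX1 have a shallower slope in knockout, and SERPINB2 and PLAT run nearly in parallel at different levels.

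Of 16 cytokines and colony-stimulating factors, 8 rose on average, and the median response difference was -0.21 (9 below 0 and 7 above), or -0.34 with the length trend removed (13 below 0). IL32, a proinflammatory cytokine, was the lowest, with 1.51, then 13.9 and 11.2 RPKM in wild type and 3.27, then 10.9 and 7.02 RPKM in knockout. The response difference was -1.39 ± 0.44 (adjusted p = 0.966). The IL-1α levels did not overlap, but part of the difference came from the higher unstimulated level in knockout. IL1A, the gene of the stimulus itself, went from 1.45 to 13.0 and 10.9 RPKM in wild type and from 4.61 to 21.7 and 32.5 RPKM in knockout. Its level was higher in knockout in both conditions, and its responses were alike (2.67 and 2.41; difference -0.27 ± 0.41). IL1B, the other IL-1 agonist, had a difference of -0.32 (-1.42 to 0.77). CSF2, the granulocyte-macrophage growth factor, had -0.43 (-1.23 to 0.37). IL36G, an epithelial member of the IL-1 family, went from 0.05 to 20.6 and 11.1 RPKM in wild type and from 0.0950 to 4.62 and 16.2 RPKM in knockout; its knockout replicates lay too far apart to separate the genotypes (-0.87 ± 0.99). LIF, a cytokine of the IL-6 family, had -0.73 ± 0.67 and did not pass the average response (adjusted p = 0.172). Of 16 IL-1 receptor and signalling genes, 2 rose on average, IRAK2 and IL1R2, the decoy receptor, and the median difference was -0.10.

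NF-κB subunits and their feedback regulators had small response differences. Of 27 genes 10 rose on average, the median response was 0.84 in wild type and 0.63 in knockout, and the response difference was below 0 for 20, with a median of -0.17 that stayed between -0.29 and -0.08 over the settings tried. NFKBIA, the inhibitor that ends NF-κB signalling, had 29.9, then 120 and 95.1 RPKM in wild type and 28.0, then 95.5 and 140 RPKM in knockout, which overlap, and a difference of 0.20 (-0.78 to 1.18). ZC3H12A, an endonuclease that degrades inflammatory mRNAs, had 7.03, then 40.6 and 33.8 RPKM in wild type and 4.37, then 23.9 and 39.8 RPKM in knockout, a difference of 0.37 ± 0.46. TNFAIP3, the ubiquitin-editing enzyme A20, had -0.75 ± 0.41, and its levels overlapped between genotypes after IL-1α. Of that difference a part of 0.67 lay in the higher unstimulated knockout library. Lower values were found for a pair of survival genes. BIRC3, an inhibitor of apoptosis, had 6.43, then 55.8 and 59.3 RPKM in wild type and 6.96, then 33.8 and 36.7 RPKM in knockout, a response difference of -0.81 ± 0.26 (95% interval -1.45 to -0.17; adjusted p = 0.966). BCL2A1, a relative of BCL2, had 0 reads and then 23.4 and 19.6 RPKM in wild type, at least 106-fold higher, and 0.324, then 16.3 and 7.80 RPKM in knockout, a read ratio of 35.3 (19.0 to 74.0). In both genes the knockout levels after IL-1α lay below the wild-type levels. BIRC3 started nearly equal in the 2 genotypes, whereas of the BCL2A1 difference of -1.61 a part of 0.72 lay in the higher unstimulated knockout library. With 0 unstimulated reads in wild type and 10 in knockout, the sizes of both BCL2A1 values depend on the pseudocount. The BCL2A1 response difference ranged from -4.28 to -1.10 over the settings tried.

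Interferon-stimulated genes, which encode antiviral effectors and sensors, had a median response of 0.79 in wild type and 0.52 in knockout. Of 47 tested, 7 rose on average and 38 had a response difference below 0. Both knockout responses lay below both wild-type responses for 24 of 47, against 17.8% of all genes. The median difference was -0.35 and stayed negative in every setting tried, from -0.55 without knockout replicate 1 to -0.21 without knockout replicate 2; it was -0.48 with the length trend removed. MX1 (chromosome 21, 42803977 to 42831141), a GTPase that blocks viral replication, had 1.34, then 14.8 and 13.9 RPKM in wild type and 2.29, then 8.12 and 4.04 RPKM in knockout. The groups did not overlap after IL-1α, and the response difference was -1.85 ± 0.54 (adjusted p = 0.966). OAS3, which makes the 2-5A activator of RNase L, had 12.4, then 44.5 and 50.9 RPKM in wild type and 18.2, then 38 and 26.6 RPKM in knockout, a difference of -1.11 ± 0.37. Parts of 0.61 (MX1) and 0.54 (OAS3) of these differences lay in the higher unstimulated knockout library. The median unstimulated difference of the 47 genes was 0.06. XAF1, a proapoptotic interferon target, had -1.33 ± 0.55 but did not pass the average response (adjusted p = 0.0546). The RNA sensor IFIH1 (MDA5) rose on average and had -0.68 (-1.36 to 0.01), of which a part of 0.40 lay in the higher unstimulated knockout library. IRF9, the DNA-binding subunit of the interferon-response complex ISGF3, rose on average and had -0.46 (-1.35 to 0.43). Its unstimulated level was lower in knockout (-0.28). IFIT2, an inhibitor of viral translation, had -0.09 (-0.73 to 0.54) and did not pass the average response (adjusted p = 0.8). Receptors and regulators of the interferon pathway had a median difference of 0.01 over 19 genes, with 8 below 0, and 2 rose on average, IFNGR1 and IFNGR2.

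Small proline-rich (SPRR) proteins, which are cross-linked into the cornified envelope of stressed epidermis, had the largest wild-type responses and the lowest response differences of the 26 gene lists examined. All 8 tested members had a difference below 0, both knockout responses lay below both wild-type responses in all 8, and 7 were at least 2-fold lower (1.19% of all genes). The median response was 5.50 in wild type and 3.38 in knockout, and the median difference was -1.74, between -2.27 and -1.26 over the settings tried. SPRR2F (hg19, chromosome 1, 153084600 to 153085991) had no read in either unstimulated library. After IL-1α it reached 155 and 91.9 RPKM in wild type, at least 460-fold higher, and 20.3 and 9.92 RPKM in knockout, at least 118-fold higher. The levels did not overlap, and the response difference was -3.02 ± 0.67. Because both starting levels were 0, it equals the genotype difference after IL-1α. It ranged from -3.55 to -2.04 over the settings tried. SPRR2E went from 0.353 to 212 and 132 RPKM in wild type and from 0.296 to 25.4 and 9.43 RPKM in knockout, a difference of -3.29 ± 0.81. SPRR2D went from 1.85 to 369 and 206 RPKM and from 0.253 to 26.8 and 24.6 RPKM, with a difference of -1.75 ± 0.49, and SPRR2A from 4.8 to 483 and 295 RPKM and from 1.10 to 58.5 and 50.6 RPKM, with -1.06 ± 0.44. All 4 rose on average, and their knockout levels after IL-1α lay below those of wild type. None of the 8 response differences passed the test (adjusted p = 0.966 for each of these 4). SPRR2A and SPRR2D were also lower in the unstimulated knockout library, while SPRR2E and SPRR2F were near or at 0 in both. Over the settings tried the response difference ranged from -2.28 to -0.63 for SPRR2D and from -1.59 to -0.69 for SPRR2A. SPRR1A had 128 and 73.5 RPKM in wild type and 34.3 and 4.59 RPKM in knockout after IL-1α, an SE of 1.44, and did not pass the average response. SPRR2 genes are near-identical in places, so reads may be shared among them and their separate values are uncertain.

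Antimicrobial and acute-phase genes had positive response differences for most members, a direction that rested in part on the length trend. Of 15 tested 4 rose on average, 12 had a response difference above 0, and both knockout responses lay above both wild-type responses for 7, close to the 37.1% of all genes. With the length trend removed the median difference of 0.58 was 0.12, and 9 of 15 were above 0. S100A9, a subunit of calprotectin (chromosome 1, 153330330 to 153333503), had 7.32, then 10.2 and 9.71 RPKM in wild type and 0 reads, then 3.51 and 4.29 RPKM in knockout. The wild-type response was 0.42, whereas the knockout level was at least 26.0-fold higher after IL-1α than without it, yet it lay below the wild-type level in both conditions. The response difference was 2.71 ± 0.34 (adjusted p = 0.75). It ranged from 1.89 to 6.86 over the settings tried, since its size depends on the pseudocount. LCN2, which sequesters bacterial siderophores, went from 81.5 to 471 and 342 RPKM in wild type and from 20.6 to 161 and 150 RPKM in knockout, a difference of 0.59 ± 0.35. SERPINA3, an acute-phase protease inhibitor, went from 0.113 to 7.29 and 8.25 RPKM and from 0.0360 to 9.41 and 6.92 RPKM, which overlap, with a difference of 0.25 ± 0.40. PI3 (elafin), an inhibitor of neutrophil elastase and an envelope precursor, had -0.59 ± 0.60. LCN2, SERPINA3 and PI3 rose on average, LCN2 from a lower starting level in knockout.

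**Figure D4:**
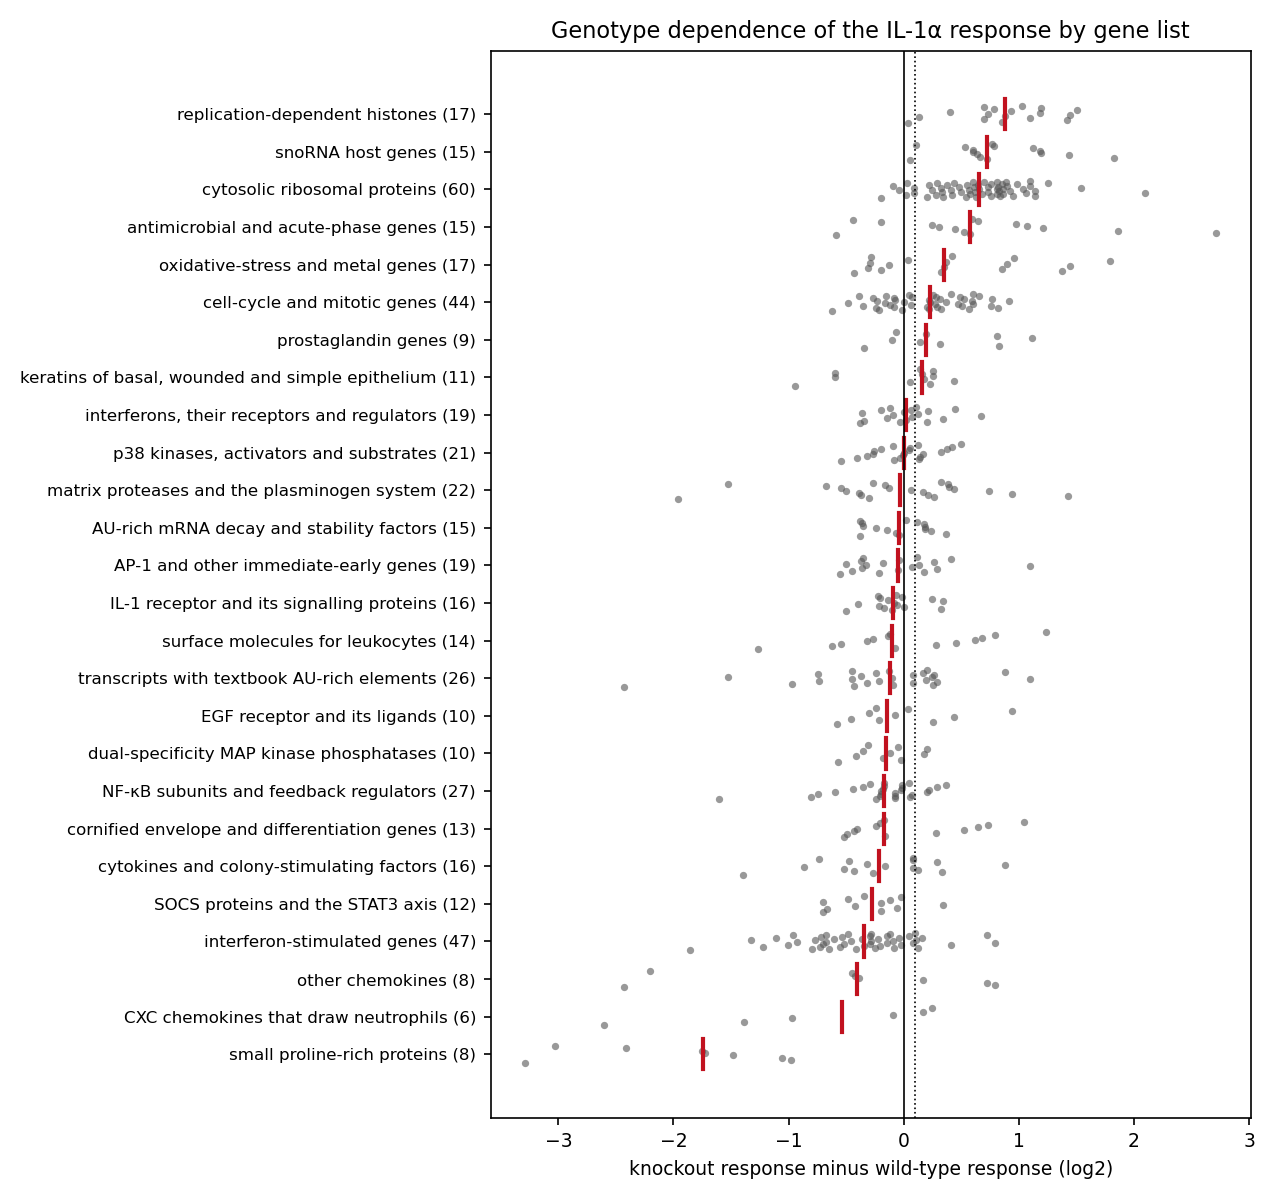
Response difference (knockout response minus wild-type response, log2) for the tested members of 26 gene lists, with the number of members in parentheses, the list median as a red bar, 0 as a solid line and the median of all genes (0.10) as a dotted line. The SPRR list has the lowest median (-1.74) and the histone list the highest (0.88).

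Matrix proteases and the plasminogen system showed no common direction (11 of 22 below 0, median -0.03; 13 below 0 and a median of -0.24 with the length trend removed). Both plasminogen activators and the inhibitor SERPINB2 (PAI-2) rose on average, with small response differences. PLAT, the tissue-type activator, had 7.54, then 46.2 and 43.8 RPKM in wild type and 1.81, then 9.79 and 9.24 RPKM in knockout, responses of 2.5 and 2.12 and a difference of -0.39 ± 0.27. SERPINB2 had 716, then 2562 and 1917 RPKM in wild type and 111, then 349 and 491 RPKM in knockout, a difference of 0.26 ± 0.44. PLAU, the urokinase-type activator, had 111, then 306 and 242 RPKM in wild type and 114, then 236 and 275 RPKM in knockout, a difference of -0.13 (-0.94 to 0.69). The collagenase MMP13 was lower in its response, with 4.97, then 33.4 and 30.0 RPKM in wild type and 1.40, then 4.95 and 2.25 RPKM in knockout. Its response difference was -1.53 ± 0.57 (adjusted p = 0.966), and its average response did not pass (adjusted p = 0.067).

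How much of a genotype difference after IL-1α was already there without it was read from the 20 genes that passed knockout against wild type under IL-1α (6 higher, 0.0464% of genes tested; 14 lower, 0.108%). That difference is the sum of the unstimulated difference and the response difference. All 20 had the same sign in the unstimulated libraries, at least 2-fold for 18, and in 17 the unstimulated difference was larger than the response difference. IGFBP3, which binds insulin-like growth factors, was lower by 2.10 on the log2 scale without stimulation and by 2.21 after IL-1α, a response difference of -0.11 ± 0.30. TNFRSF11B (osteoprotegerin), a decoy receptor for RANKL, had -2.71 and -2.90, and PLAT had -1.80 and -2.18. BASP1, a membrane-associated signalling protein, was higher in knockout by 2.80 and 2.31. In 3 genes the response difference was the larger: TXNIP, SPRR2D and APOBEC3A. For SPRR2D and APOBEC3A that order depends on the pseudocount of 0.5 RPKM, with 6 and 3 reads in the unstimulated knockout library. For SPRR2D the response difference ranged from -2.28 to -0.63 over the settings tried, beside an unstimulated difference of -1.64 in the main setting. TXNIP, an inhibitor of thioredoxin, was at 24.2, then 5.78 and 7.0 RPKM in wild type and at 31.3, then 27.2 and 33.3 RPKM in knockout. Its response was -1.85 in wild type and -0.06 in knockout, a response difference of 1.79 ± 0.32 (95% interval 1.02 to 2.57; adjusted p = 0.966). APOBEC3A, a cytidine deaminase induced by interferon, had 1.12, then 16.8 and 8.26 RPKM in wild type and 0.0600, then 0.477 and 0 RPKM in knockout. With 3 reads in the unstimulated knockout library and 15 over both IL-1α libraries, its knockout response could not be told from none (ratio 3.38, 95% interval 0.957 to 18.2, counting error only).

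**Figure D5:**
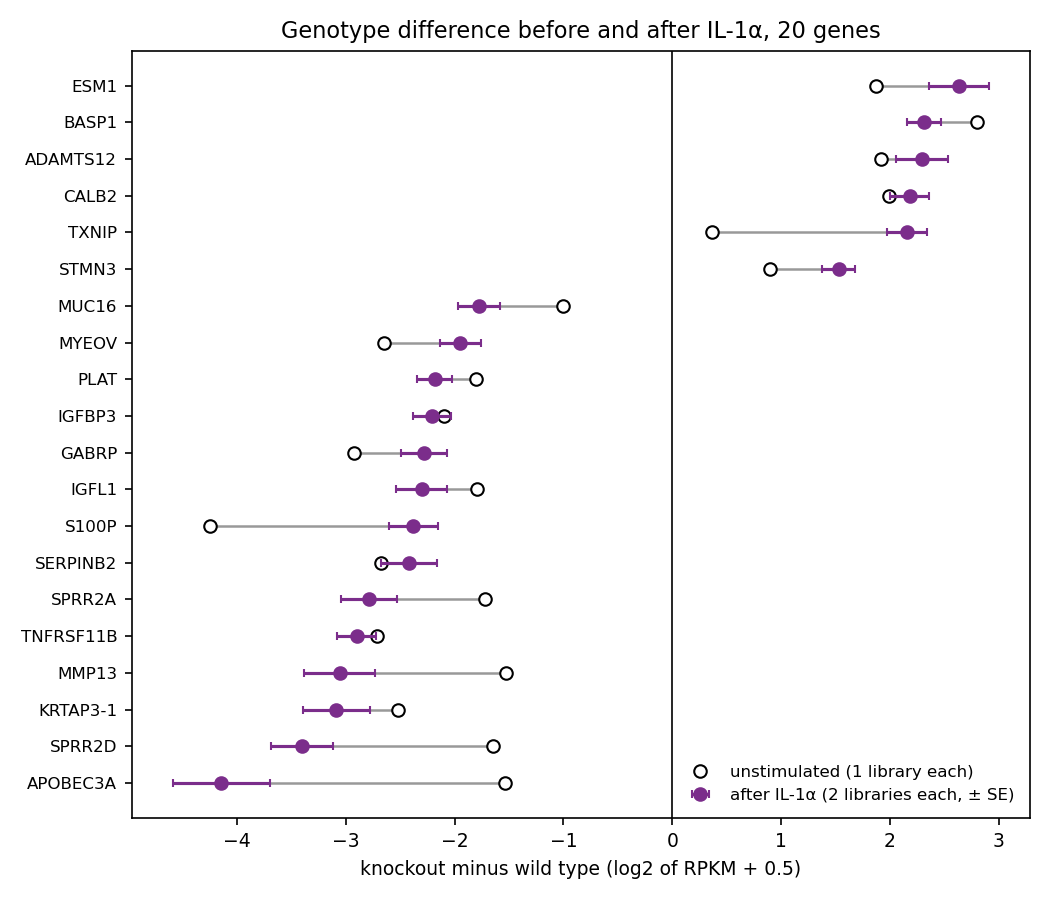
Knockout minus wild type (log2 of RPKM + 0.5) without stimulation (open circles, 1 library each) and after IL-1α (filled circles, 2 libraries each, bars are ± SE from limma) for the 20 genes that passed the test after IL-1α. The line between the circles is the response difference; it is short for IGFBP3, TNFRSF11B and CALB2 and long for APOBEC3A, TXNIP, S100P and SPRR2D.

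Genes of the p38 pathway and of processes known to depend on it had list medians between -0.15 and 0.00. With the length trend removed the medians were -0.35 for AU-rich transcripts (20 of 26 below 0), -0.29 for dual-specificity phosphatases (8 of 10) and -0.19 for AP-1 genes (15 of 19). They were -0.13 for decay factors (9 of 15) and -0.07 for p38 genes (12 of 21). The median of all genes also fell under that setting, from 0.10 to -0.01, so a downward shift was not particular to these lists. The 21 genes for p38 kinases, their activators and substrates had a median response difference of 0.00 (10 below 0), and none passed the average response. MAPK14 itself had -0.27 ± 0.38, and the paralogous kinases had 0.50 ± 0.40 (MAPK11), 0.00 ± 0.36 (MAPK12) and -0.10 ± 0.41 (MAPK13). The paralogues stood at 1.44 to 2.47 RPKM (MAPK11), 5.45 to 7.64 RPKM (MAPK12) and 6.11 to 8.02 RPKM (MAPK13) in wild type and at 2.66 to 3.07, 6.15 to 9.81 and 5.14 to 8.76 RPKM in knockout. For 26 transcripts with textbook AU-rich elements, the class that MK2 is known to stabilise, the median difference was -0.12 (15 below 0); 11 rose on average, and the median response was 1.42 in wild type and 1.09 in knockout. Their values ranged from -2.43 (CCL2, with its wide error) to 1.09, with 2 at least 2-fold lower and 1 at least 2-fold higher. PTGS2, the inducible cyclooxygenase, had 10.5, then 14.4 and 12.4 RPKM in wild type and 3.15, then 5.06 and 4.5 RPKM in knockout, a difference of 0.20 ± 0.31. ZFP36 had -0.24 ± 0.37, and the 15 decay and stability factors had a median of -0.04, with 1 that rose on average, ZC3H12A. AP-1 and other immediate-early genes (19, median -0.05) and dual-specificity phosphatases (10, median -0.15) held no member that passed the average response at 4 h. SOCS and STAT3-axis genes had a difference below 0 for 11 of 12 (median -0.27), for example OSMR, the oncostatin M receptor, at -0.70 ± 0.35; none of these passed the average response.

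Several of the highest response differences belonged to genes with a negative wild-type response and a knockout response near 0. RPL39, a ribosomal protein (chromosome X, 118920467 to 118925622, 414 bases), had 152, then 50.4 and 41.1 RPKM in wild type and 29.5, then 38.7 and 37.7 RPKM in knockout. Only the unstimulated wild-type library stood apart, and the difference was 2.10 ± 0.29 (adjusted p = 0.786), or 1.5 with the length trend removed. SNHG19, a host of small nucleolar RNAs, had 51.4, then 15.6 and 13.8 RPKM in wild type and 15.7, then 15.7 and 16.9 RPKM in knockout, a difference of 1.83 ± 0.27, or 1.24 with the trend removed. S100P, a calcium-binding protein, had 105, then 32.3 and 23.6 RPKM in wild type and 5.09, then 4.24 and 5.64 RPKM in knockout. Its response difference was 1.86 ± 0.39, and its knockout level was low throughout. The same shape held for groups of short transcripts: 57 of 60 cytosolic ribosomal protein genes (median 0.65), 15 of 15 snoRNA host genes (0.72) and 17 of 17 replication-dependent histones (0.88) had a difference above 0. Of all 12925 genes, 7810 had a difference above 0. With the length trend removed the medians of these lists were 0.23, 0.29 and 0.39, and 38 of 60, 12 of 15 and 14 of 17 were above 0. Histone values come from poly-A-selected libraries, which hold little of the non-polyadenylated histone mRNA, and histone copies may share reads. The 44 cell-cycle genes had 0.23, or 0.09 with the trend removed. CDKN1A, the p53 target p21, was among them the member that rose on average, with 32.1, then 108 and 91.3 RPKM in wild type and 24.9, then 59.2 and 58.2 RPKM in knockout, a response difference of -0.39 ± 0.28. TXNIP, described above, is longer (2589 bases) and kept 1.66 with the trend removed.

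The remaining lists held few genes that passed the average response. Surface molecules for leukocytes had a median difference of -0.10 over 14 genes, with 1 that rose on average, SDC4. ICAM1, the integrin ligand, had 3.88, then 19.0 and 19.0 RPKM in wild type and 1.09, then 7.3 and 35.2 RPKM in knockout; its knockout replicates lay on either side of the wild type, and the difference was 1.24 ± 1.11. CD55, which protects cells from complement, had -1.26 ± 0.60. The medians were -0.15 for the EGF receptor and its ligands (10 genes), 0.19 for prostaglandin genes (9), 0.16 for keratins (11), -0.17 for cornified envelope genes other than SPRR (13) and 0.35 for oxidative-stress and metal genes (17). The medians for keratins, cornified envelope genes, the EGF receptor, surface molecules, proteases, AP-1 genes, p38 genes, AU-rich transcripts, their decay factors and interferon receptors changed sign under at least 1 setting, as did that of the CXC chemokines. In the oxidative-stress list SOD2, the mitochondrial superoxide dismutase and a classic NF-κB target, rose on average and had 20.3, then 95 and 133 RPKM in wild type and 30.7, then 126 and 153 RPKM in knockout, a difference of -0.28 ± 0.38. Bulk RNA cannot tell a response in fewer cells from a smaller response in every cell.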

How the data were processed

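RNA of 6 HaCaT libraries was sequenced after poly-A selection with a stranded kit, per the labels. Per the submitters' processing notes reads were handled with bcl2fastq (2.20.0.422), STAR and HOMER on hg19. The deposited table holds RPKM values computed by the authors, 1 line per gene symbol; whether counting used strand is not given in the sources used here. Values were taken to log2 after adding 0.5 RPKM, for genes reaching 1 RPKM somewhere, and a mean was fitted for each of the 4 groups with limma (version 3.58.1 under R 4.3.3); its variances were moderated by empirical Bayes along the mean level, and p-values adjusted by Benjamini-Hochberg over all genes at 0.05. The spread came from the 2 replicated IL-1α groups (2 residual and 4.2 prior degrees of freedom). Log2 differences understate changes of low genes. Depth was recovered as the number that turned RPKM of 0.02 to 1 into whole reads within 0.1 read. The code was tested on simulated data. Members and lists were chosen with earlier results of these data known. Genes were named by the 10 smallest p in each direction of the interaction, the largest average responses, the largest members of each list, the p38 kinases and those passing the genotype test, with a group mean of at least 5 RPKM. The following were chosen after their values were seen: CXCL10, IFNGR2, NFKBIZ, CFLAR, CSF1, NINJ1, PLAU, NFKBIA, IL1B, CSF2, IFIH1, IRF9, IFIT2, IRAK2 and CYP1A1. Normalization, filter, pseudocount, transcript length, weights and each replicate were varied.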

Additional observations from a re-analysis of the deposited data

Results flagged for a closer look

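Median responses of 3 gene lists had opposite signs in the 2 genotypes in both replicates. For 60 cytosolic ribosomal protein genes the medians were -0.43 and -0.78 in the wild-type libraries and 0.02 and 0.03 in the knockout libraries, a median response difference of 0.65. For 15 snoRNA host genes they were -0.44 and -0.85 in wild type and 0.01 and 0.28 in knockout, a difference of 0.72. For 17 oxidative-stress and metal genes they were -0.35 and -0.14 in wild type and 0.10 and 0.06 in knockout, a difference of 0.35. The difference of these medians was not tested, and all 4 responses share the 2 unstimulated libraries. Apart from 0.28 for snoRNA host genes in replicate 2, the knockout medians were at most 0.10. Those of all genes were -0.03 and -0.00, so the signs alone do not show a rise in knockout. With the length trend removed the 3 differences were 0.23, 0.29 and 0.29. The response of RPL39 had opposite signs in the same way, with a response difference of 2.10 that did not pass limma's test (adjusted p = 0.786). Such opposite signs were found in 13.1% of all genes tested.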

How the results depend on the processing

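Every response difference rests on 1 unstimulated library per genotype, and 2 residual degrees of freedom limit all the tests. Counting depth limits the genes with under 10 reads in an unstimulated library, such as SPRR2F, SPRR2E, CXCL5 and APOBEC3A. The interaction count was 0 in every setting but one: without a filter on low values 87 genes passed (37 higher, 50 lower). At an unadjusted p under 0.05 limma gave 390 to 588 genes in the other settings on all replicates and 183 to 1665 with a replicate left out. Median-of-ratios rescaling and quantile normalization each moved the median response difference of all genes from 0.10 to -0.02.

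The average response passed for 97 genes, and for 198 with a minimum of 5 RPKM, 175 with the length trend removed, 149 with voom weights, and 0 to 48 with a replicate left out. Without a filter 116 passed, of which 8 rose, all 8 among the 82. The wild-type response passed for 28, and for 49 without a filter, 162 with a minimum of 5 RPKM, 48 with median-of-ratios rescaling, 101 with the length trend removed, 11 with voom weights and 0 to 46 with a replicate left out. The knockout response passed for 9, and for 5 with a pseudocount of 1, 65 without a filter, 49 with a minimum of 5 RPKM, 30 with the length trend removed, 4 without the mean trend, 2 with voom weights and 0 with any replicate left out (281 to 2086 at an unadjusted p under 0.05). Knockout against wild type under IL-1α passed for 20, and for 7 with a pseudocount of 0.1, 88 with a minimum of 5 RPKM, 13 with quantile normalization, 40 with the length trend removed, 55 with voom weights, 0 without a filter (2637 at an unadjusted p under 0.05), 0 without the mean trend (1879) and 0 with any replicate left out (575 to 2545). With a replicate left out, the lone library is assumed to vary like the replicated group.

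The replicate numbers are shared between genotypes but did not pair the libraries (correlation of deviations 0.009). With the replicate block 0, 149, 81, 18 and 58 genes passed the interaction, the average response, the wild-type response, the knockout response and the genotype test, and with the block and the length trend removed 0, 244, 146, 43 and 123.

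Of the interactions of single genes named here, these changed sign under a setting. With the length trend removed, with or without the block, CALB2 was -0.14, CXCL8 -0.02, IFNGR1 -0.18, IFNGR2 -0.11, MAPK12 -0.23, MAPK13 0.00, NFKBIA -0.08, NINJ1 -0.18, SERPINA3 -0.03 and SNHG25 -0.05. With median-of-ratios rescaling IFNGR1 and MAPK12 were -0.12, IFNGR2 -0.06 and NFKBIZ -0.08. With quantile normalization IFNGR1 was -0.09, IFNGR2 -0.00, MAPK12 -0.11 and SERPINB2 -0.04. IL1R2 was 0.10 with a pseudocount of 0.1 and 0.17 with voom weights. IRAK2 was 0.04 and MAPK12 -0.00 with a pseudocount of 1, and MAPK12 was -0.00 with voom weights. With each IL-1α replicate left out in turn the range was -0.70 to 0.51 for CXCL1, -0.18 to 0.67 for CXCL8, -0.12 to 0.14 for IFNGR1, -0.06 to 0.19 for IFNGR2, -0.55 to 0.02 for IL1A, -0.69 to 0.05 for IL1B, -0.34 to 0.22 for IL1R2, -0.27 to 0.06 for IRAK2, -0.23 to 0.23 for MAPK12, -0.39 to 0.20 for MAPK13, -0.54 to 0.00 for MAPK14, -0.07 to 0.48 for NFKBIA, -0.06 to 0.15 for NFKBIZ, -0.19 to 0.03 for CFLAR and -0.30 to 0.04 for PLAU. The keratin median was -0.19 with quantile normalization and -0.03 with the length trend removed, and the EGF receptor median lay between -0.16 and 0.02 with a replicate left out. The cause of these changes was not tested.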
